A study of Mus musculus with 6 samples.

Results

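The transcription factors Spi1, Irf8, Irf5, Runx1, Runx3, Ikzf1, Cebpa and Fli1 were followed in the retinas of control, light-exposed and minocycline-treated mice. These 8 genes were chosen by name, as regulators that build and maintain the myeloid lineage, with earlier results of these data known, and they are 8 of the 23420 genes in the count table. RNA of mouse retina was sequenced in 6 libraries, 2 per group. Control mice received neither bright light nor drug. Light-exposed mice were exposed to 10000 lux for 1 h, and the minocycline-treated group had the same exposure plus intraperitoneal minocycline, a tetracycline with anti-inflammatory activity, at 45 mg/kg daily for 4 days. Both exposed groups were analysed after 4 days. The sample labels give the strain CD1 for every library, whereas the study's methods describe albino BALB/cJ mice. Light intensity and dosing are given here as in the labels, and the study's methods differ from them in naming a higher intensity and additional injections at the start. No group carries a transgene or deletion.

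Microglia are the resident macrophages of the retina, and they depend on a small network of DNA-binding proteins. PU.1, the product of Spi1, is an ETS-family factor without which macrophages and microglia do not form, and it pairs with interferon regulatory factors, IRF8 above all, on composite sites in myeloid enhancers. RUNX1 acts before PU.1 in blood development and binds an enhancer of Spi1, C/EBPα directs progenitors towards the myeloid fate, and Ikaros (Ikzf1) and FLI1 serve several blood lineages. Light damage to photoreceptors is known to draw microglia towards the outer retina, so the libraries allow the question of how the transcripts of this network varied with light and with minocycline.

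The 8 genes lie on 8 different chromosomes, so no pair of them shares a locus. Whether reads could be shared between paralogues, such as Runx1 and Runx3 or Irf5 and Irf8, depends on the treatment of multi-mapping reads, which is not given in the sources used here. In the GRCm38 annotation, whose start and end are those of the whole gene with its exons, introns and UTRs, Spi1 spans chr2:91082374-91115759, Irf8 chr8:120736358-120756694, Irf5 chr6:29526130-29541869 and Runx1 chr16:92601466-92826074. Runx3 spans chr4:135120645-135177990, Ikzf1 chr11:11684962-11772930, Cebpa chr7:35119293-35121928 and Fli1 chr9:32422204-32543432. The table lists Spi1 under its older symbol Sfpi1. Exons of Irf5 overlap those of Tnpo3 on the opposite strand by up to 251 bases, and the sources used here do not say whether counting used strand. Tnpo3 had 1367 to 2176 counts per library against 7 to 211 for Irf5. Runx1 overlaps the antisense gene Gm26626 by up to 106 bases and Cebpa overlaps Gm45091 by up to 51 bases, neither of which was analysed here.

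Because the members moved together, the 250 bases upstream of their transcription starts were read from RefSeq windows (GRCm38.p6). Windows were found for 6 of the 8 members, 10 windows in all. Spi1 and Fli1 had none. The windows of Irf8 and Cebpa are shown because these genes had the highest CPM among the members after light, and the Runx1 window because it held the only GAGGAA among the members. They are printed 5′ to 3′ on the strand of the gene. Capitals mark TATAAA in Irf8 and Cebpa, and TTCCTC, the reverse complement of GAGGAA, in Runx1.
Irf8, chr8:120736108-120736357, plus strand: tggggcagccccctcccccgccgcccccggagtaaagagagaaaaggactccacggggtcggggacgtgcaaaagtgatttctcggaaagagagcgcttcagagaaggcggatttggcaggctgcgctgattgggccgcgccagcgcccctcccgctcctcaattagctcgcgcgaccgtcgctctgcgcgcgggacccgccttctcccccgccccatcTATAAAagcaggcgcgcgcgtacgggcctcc
Cebpa, chr7:35119043-35119292, plus strand: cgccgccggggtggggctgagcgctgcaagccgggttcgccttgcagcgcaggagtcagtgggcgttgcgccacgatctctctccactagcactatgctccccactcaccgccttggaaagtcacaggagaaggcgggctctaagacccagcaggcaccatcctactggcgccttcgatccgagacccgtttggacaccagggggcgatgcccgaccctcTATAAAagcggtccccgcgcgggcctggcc
Runx1, chr16:92697330-92697579, minus strand: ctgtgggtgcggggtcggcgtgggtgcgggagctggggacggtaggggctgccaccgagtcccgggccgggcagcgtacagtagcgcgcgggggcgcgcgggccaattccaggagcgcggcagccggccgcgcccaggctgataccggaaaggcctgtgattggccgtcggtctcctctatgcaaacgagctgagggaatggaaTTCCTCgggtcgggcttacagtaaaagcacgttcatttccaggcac

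The windows were searched on both strands for 5 motifs: GAGGAA, the core bound by PU.1, an ETS and IRF composite (GGAA and GAAA with any 2 bases between them), the interferon-stimulated response type (GAAA and GAAA with any 2 bases between them), TGTGGT, bound by RUNX factors, and TTGCNNAA, bound by C/EBP factors. The composite and the interferon type share the letters GAAA and can overlap. GAGGAA occurred in 1 of the 10 member windows, that of Runx1, where it began 46 bases before the start on the opposite strand, against 23.25% of all 32851 windows. TGTGGT occurred in 1 member window, at 2 places in that of Runx3 on the opposite strand, against 14.05% of all windows. The composite, the interferon type and TTGCNNAA occurred in 0 of the 10 windows, against 2.301%, 2.977% and 9.564% of all windows. TATAAA, the letters of a TATA box, was added after the windows were read. It began 31 bases before the start in Irf8 and 30 bases before it in Cebpa, on the strand of the gene, and occurred in 12.37% of all windows on either strand. These matches describe letters in short windows and not bound sites.

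Libraries held between 15205930 and 22856922 counts, and 16594 to 17421 genes were detected in each. Levels are given as raw counts and as CPM, which is the count scaled to library size with TMM factors that correct for differences in composition. A gene with 0 counts could hold up to 3 by chance, which is 0.131 to 0.213 CPM per library. Rod markers, among them rhodopsin, marked the tissue as retina. Their summed level over 8 genes was 92975 and 73249 CPM in the controls, 54881 and 38789 CPM after light, and 79473 and 85603 CPM with minocycline. Control 1 differed from the other 5 libraries in carrying female transcripts. Replicates are labelled as separate samples, but whether each came from 1 animal or from a pool is not given in the sources used here, so p-values measure only the spread between these samples.

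After light exposure, every member was higher in both light-exposed libraries than in either control. In the quasi-likelihood fit of edgeR, adjusted by Benjamini-Hochberg over 14349 genes, 7 of the 8 members had enough counts to be tested. All 7 were higher at an adjusted p under 0.05, against a background of 7.52% of tested genes, with Fli1 near the threshold. With the additional cutoff of a log2 fold change of at least 2, 6 were called, against 2.89% of tested genes, and Fli1 fell short of that cutoff. The 8 members without overlap between the groups compare with 30.6% of tested genes. The median log2 fold change of the 7 tested members was 3.36, or 10.3-fold, and that of all tested genes was 0.0025. In bulk retina, more myeloid cells and more RNA per myeloid cell cannot be told apart.

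Spi1, the ETS factor at the centre of this network, had 6 counts in each control, 44 and 185 counts in light-exposed replicates 1 and 2, and 14 and 11 counts in minocycline libraries A and B. The light-exposed pair stood far above the other 4 libraries, and its replicates differed from each other more than those of either other group did. In CPM, the level was 0.425 ± 0.00281 (SD, n = 2) in control and 5.68 ± 4.39 (SD, n = 2) after light. The fitted difference was 13.3-fold, a log2 fold change of 3.73 (SE 0.68, edgeR adjusted p = 0.0173). A count of 6 has an exact 95% Poisson interval of 2.20 to 13.1, which covers counting error only, so the control level behind this fold is itself loosely known.

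Irf8, the partner of PU.1 on composite sites, had 17 counts in each control, 106 and 400 counts after light, and 23 and 21 counts with minocycline. Light-exposed libraries were separated from the rest here too. Its level rose from 1.20 ± 0.00796 CPM to 12.6 ± 9.05 CPM (SD, n = 2 each), 10.5-fold, with a log2 fold change of 3.39 (SE 0.59, edgeR adjusted p = 0.0197).

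Irf5, which drives inflammatory cytokine genes downstream of Toll-like receptors, had 7 and 12 counts in control, 65 and 211 counts after light, and 18 and 11 counts with minocycline. The control and minocycline libraries overlapped, and both light-exposed libraries lay above them. The change was 10.3-fold, with a log2 fold change of 3.36 (SE 0.56, edgeR adjusted p = 0.0132). Over the same libraries Tnpo3, with which its exons overlap, had 1367 and 1533 counts in control and 1725 and 1893 counts after light.

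Cebpa, which commits progenitors to the myeloid fate and is also a factor of liver and fat, showed the largest fitted change among the tested members. Its counts were 9 and 11 in control, 128 and 425 after light, and 32 and 16 with minocycline. Both light-exposed values exceeded all others, and the minocycline values lay above the controls. The level rose from 0.707 ± 0.0954 to 13.8 ± 8.98 CPM (SD, n = 2 each), 19.5-fold, with a log2 fold change of 4.28 (SE 0.56, edgeR adjusted p = 0.00962). Neutrophils also depend on C/EBP factors. Of 7 neutrophil markers in the table, Camp and Elane had 0 counts in every library, and Ngp and Mpo had 0 or 1. S100a8 had 1 and 0 counts in control, 7 and 24 after light, and 4 and 2 with minocycline. S100a9 had 2 and 0 counts in control, 6 and 4 after light, and 10 and 2 with minocycline. Ltf had 2 and 1 counts in control, 2 and 6 after light, and 10 and 0 with minocycline. The sum over the list was 0.355 and 0.141 CPM in control, 0.935 and 1.66 CPM after light, and 1.09 and 0.265 CPM with minocycline, and its part in the Cebpa result was not tested.

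Runx1 and Runx3 encode DNA-binding partners of the shared subunit CBFβ. Runx1, needed for the emergence of blood stem cells, had 6 and 9 counts in control, 33 and 113 counts after light, and 17 and 5 counts with minocycline. The light-exposed libraries were again above the rest, while minocycline A and B lay on either side of the controls. Its log2 fold change was 2.78 (SE 0.59, edgeR adjusted p = 0.0212), or 6.87-fold.

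Runx3, best known in cytotoxic T cells and in subsets of dendritic and Langerhans cells, was the rarest member. It did not pass the filter on low counts with all libraries in, so it was tested only under settings that let it through, among them DESeq2 and no filter. It had 2 and 0 counts in control, 4 and 19 counts after light, and 0 and 1 counts with minocycline. Light-exposed replicate 1, at 4 counts, was close to the limit of 3. Summed over each group, the light-exposed to control ratio was 8.51, with an exact 95% interval of 2.10 to 74.5 for counting error only. The corresponding ratio of light-exposed to minocycline libraries was 25.2 (4.09 to 1038). Of the markers of T and natural killer cells, Cd3e, Ncr1 and Gzmb had 0 counts in every library and 8 of the 11 had 3 counts or fewer everywhere. Lck had 7 and 12 counts in control and 17 and 33 after light, and Cd8a had 2 and 1 in control and 9 and 5 after light. The sum of the list was 0.640 and 1.20 CPM in control, 1.81 and 2.23 CPM after light, and 1.22 and 0.742 CPM with minocycline, against 0.234 and 0.902 CPM of Runx3 itself after light. The part of these cells in the Runx3 counts was not tested.

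Ikzf1, which encodes the zinc-finger protein Ikaros of lymphoid and myeloid cells, had 9 and 10 counts in control, 36 and 154 counts after light, and 26 and 15 counts with minocycline. Its light-exposed libraries were the highest and its controls the lowest. The change after light was 7.01-fold, with a log2 fold change of 2.81 (SE 0.64, edgeR adjusted p = 0.0280). Of 5 B-cell markers in the table, Ms4a1 had 0 counts in every library and the sum was 0.704 to 1.35 CPM in control and 0.643 to 1.61 CPM after light.

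Fli1, an ETS factor of endothelium and megakaryocytes as well as of leukocytes, had 18 and 12 counts in control, 36 and 116 counts after light, and 31 and 34 counts with minocycline. Light-exposed replicate 1 lay just above the minocycline libraries. The level was 1.06 ± 0.307 CPM in control and 3.81 ± 2.41 CPM after light (SD, n = 2 each), with a log2 fold change of 1.85 (SE 0.52, edgeR adjusted p = 0.0482), or 3.60-fold. This adjusted p was 0.0546 with DESeq2 size factors, 0.0642 with all 6 libraries in one fit and 0.0578 without robust estimation, and it was 0.144, 0.268 and 0.517 without control 1, control 2 and light-exposed replicate 2. The sum over 10 endothelial markers was 217 and 187 CPM in control, 282 and 368 CPM after light, and 289 and 215 CPM with minocycline. Of the 9 tested after light, 1 was higher, Kdr, a receptor for vascular endothelial growth factor (log2 fold change 0.87, SE 0.17, edgeR adjusted p = 0.0166). Kdr carried most of this sum, with a mean of 124 CPM in control and 225 CPM after light. The other tested markers had log2 fold changes from -0.20 (Cldn5) to 1.02 (Eng), with Pecam1 at 0.27 and Cdh5 at 0.14. The part of endothelium in the Fli1 result was not tested.

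**Figure D1:**
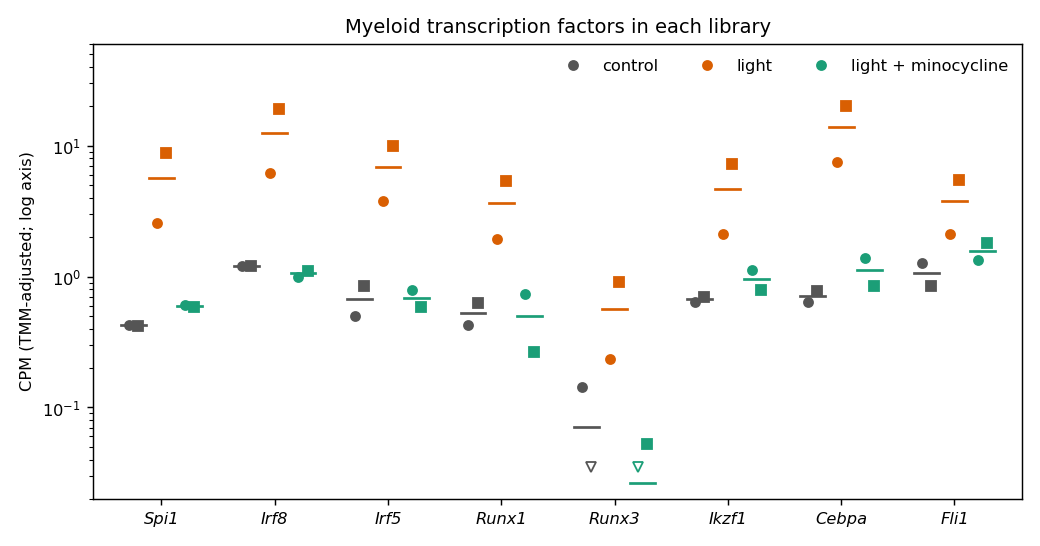
CPM (log axis, scaled with TMM factors) of the 8 members in the 6 libraries. Circles are replicate 1 or minocycline A, squares are replicate 2 or minocycline B, bars are group means, and open triangles mark libraries with 0 counts. Both light-exposed libraries lie above both controls for all 8 members.

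The light-exposed replicates differed from each other in the same direction for every member. Light-exposed replicate 2 held 2.62 (Fli1) to 3.86 (Runx3) times the CPM of replicate 1, with a median of 2.93. The microglia markers differed by 2.58 times between these replicates and the rod markers by 0.707 times.

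The calls depended on single libraries. Without control 1 or without control 2, 0 members were called, and over all genes 3 and 13 were then called higher in place of 415. Without light-exposed replicate 2, 4 members were called (Spi1, Irf8, Irf5 and Cebpa), and without light-exposed replicate 1 all 8 were. Over all genes, 247 of 14528 and 738 of 14753 were then called higher. Fold changes kept their direction throughout. That of Cebpa ranged from 3.39 to 4.82 on the log2 scale and that of Fli1 from 0.98 to 2.37.

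**Figure D2:**
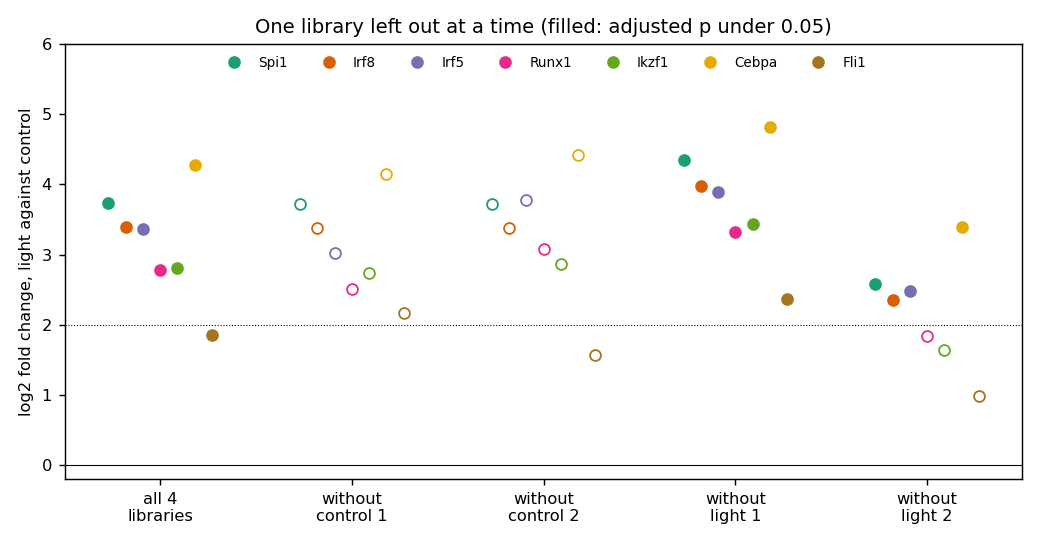
Log2 fold change of light-exposed against control for the 7 tested members, with all 4 libraries and with each left out in turn. Filled points had an edgeR adjusted p under 0.05, and the dotted line is the cutoff of 2. Every value lies above 0, and every point is open when either control is left out.

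With minocycline, every member was lower in both libraries than in either light-exposed library, against 28.7% of the 14750 tested genes. None of the 7 tested members passed the adjusted threshold in this comparison, with 0 called by edgeR. Their adjusted p-values ran from 0.0698 to 0.224. All 7 had an unadjusted p under 0.05, as did 3117 genes or 21.1% of those tested. Few genes passed at all: 0.0407% of tested genes were lower at an adjusted p under 0.05, and 0.0339% with the fold cutoff as well. Other settings moved the number of members called lower, to 6 with DESeq2, 5 without a filter on low counts, 5 with all 6 libraries in one fit, and 6 without light-exposed replicate 1. Calls over all genes rose under the same settings, from 5 of 14750 genes lower to 299 of 14926 with DESeq2, 209 of 18453 without a filter, 218 of 14713 in one fit and 406 of 15207 without light-exposed replicate 1.

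The median log2 fold change of minocycline-treated against light-exposed retinas was -3.23 over the 7 tested members. Mean CPM with minocycline was 8.10% of the light-exposed mean for Cebpa, 8.39% for Irf8, 9.89% for Irf5, 10.5% for Spi1, 13.8% for Runx1, 20.5% for Ikzf1 and 41.4% for Fli1. Cebpa had a log2 fold change of -3.59 (SE 0.57, edgeR adjusted p = 0.0698), Irf8 of -3.56 (SE 0.60, 0.0698), Irf5 of -3.31 (SE 0.56, 0.0698) and Spi1 of -3.23 (SE 0.65, 0.0756). The interval of the Fli1 difference, at -1.26 (95% interval -2.28 to -0.25, edgeR adjusted p = 0.224), was the nearest to 0. Fli1 was thus the member with the smallest difference in this comparison and in that of light against control, but differences between members were not tested.

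The size of these differences rested in part on light-exposed replicate 2. Without it, the log2 fold change was -2.72 for Cebpa, -2.55 for Irf8, -2.46 for Irf5, -2.10 for Spi1, -1.90 for Runx1, -1.12 for Ikzf1 and -0.42 for Fli1, and adjusted p-values ran from 0.0957 (Cebpa) to 0.931 (Fli1).

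Against control, the minocycline-treated retinas showed 0 called members of 6 tested by edgeR, and 0 with an unadjusted p under 0.05 (994 genes, or 7.01%, had one over the 14181 tested). Spi1 and Runx3 did not pass the filter on low counts here, so this result does not cover them. DESeq2 also called 0. Over all genes, 0.162% were higher at an adjusted p under 0.05 and 0.134% with the fold cutoff. The minocycline libraries lay above both controls for 4 members (Spi1, Ikzf1, Cebpa and Fli1), a pattern shared by 15.9% of tested genes, and below both for Irf8, while Irf5, Runx1 and Runx3 overlapped. The normal 95% intervals were wide at these counts, and they are still narrower than the F test implies. They ran from -0.95 to 0.66 for Irf8, from -0.92 to 1.08 for Irf5, from -1.05 to 1.05 for Runx1, from -0.35 to 1.49 for Ikzf1, from -0.23 to 1.65 for Cebpa and from -0.25 to 1.45 for Fli1 on the log2 scale. Each interval spans 0, so no tested member could be told from control at this depth. Differences as large as the bounds of each interval remain possible for that member. The comparisons share libraries, so the fall with minocycline and the rise with light are not independent of each other.

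**Figure D3:**
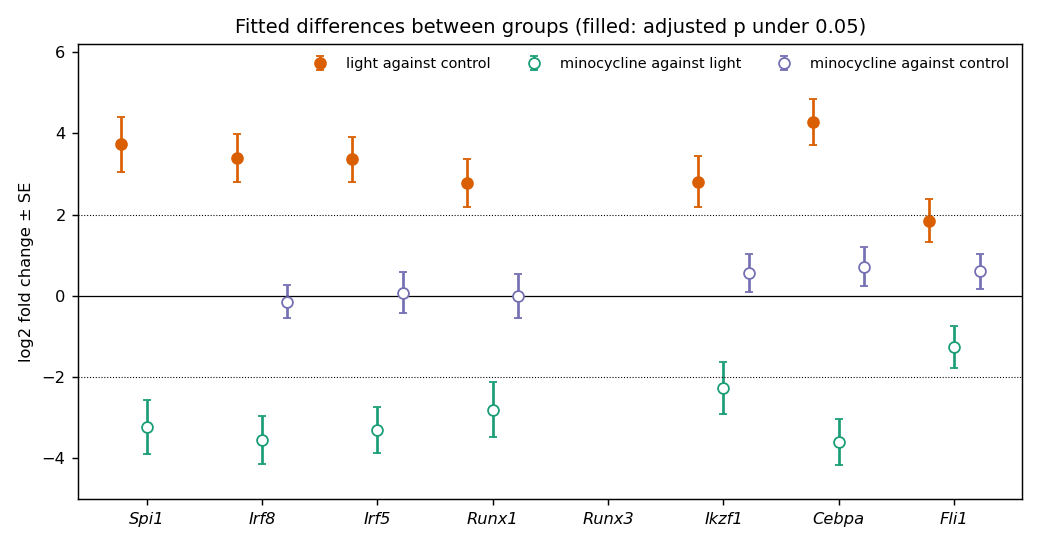
Log2 fold changes with standard errors for the members in the 3 comparisons, from edgeR. Filled points had an adjusted p under 0.05 and dotted lines mark a log2 fold change of 2 in either direction. The 7 tested members are above 0 after light and below 0 with minocycline against light, and Runx3, below the filter on low counts, has no point.

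Summed markers of corneal epithelium, and of pigment cells and smooth muscle, were at higher levels in the minocycline libraries. The sum of 8 corneal epithelium markers was 194 and 276 CPM there, against 2.39 to 15.2 CPM in the other 4 libraries, and that of 9 pigment cell and smooth muscle markers was 318 and 1423 CPM against 37.2 to 143 CPM. Dct and Pmel, of melanin synthesis and melanosomes, made up most of the pigment cell and smooth muscle sum in the minocycline libraries. Rpe65, of the retinal pigment epithelium, did not follow it, with 275 and 966 counts in control, 364 and 628 after light, and 430 and 601 with minocycline. Against light, 1 of 7 tested corneal markers and 0 of 9 pigment cell and smooth muscle markers were called higher by edgeR. The part of these tissues in the minocycline values of the members was not tested.

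The order of the members changed between groups. On the scale of CPM per kilobase of annotated exon, the light-exposed retinas ranked Cebpa (5.25), Irf5 (2.38), Spi1 (2.11), Irf8 (1.78), Fli1 (1.09), Ikzf1 (0.815), Runx1 (0.303) and Runx3 (0.114). This order was the same within each light-exposed library, although the ranges of every pair of neighbours overlapped between the libraries. In control, Fli1 (0.305) led, followed by Cebpa (0.268), Irf5 (0.231), Irf8 (0.170), Spi1 (0.158), Ikzf1 (0.116), Runx1 (0.0441) and Runx3 (0.0142). Fli1 overlapped Cebpa in range, Cebpa overlapped Irf5 and Irf5 overlapped Irf8, and the neighbours below these did not overlap. With minocycline, Fli1 (0.452) and Cebpa (0.425) again led without separating from each other, Irf5 (0.235) overlapped Spi1 (0.221), and Ikzf1 (0.167) overlapped Irf8 (0.150). Exon length here unites all annotated transcripts, which lowers the per-kilobase level of genes with long alternative exons such as Runx1.

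Counts of the members relative to Spi1 within the same library do not depend on library size. Fli1 gave 3 and 2 counts per Spi1 count in control, 0.818 and 0.627 after light, and 2.21 and 3.09 with minocycline, so the light-exposed pair lay below the other 4 libraries. Ikzf1 gave 1.5 and 1.67 in control, 0.818 and 0.832 after light, and 1.86 and 1.36 with minocycline, with the same separation. Cebpa moved the other way, at 1.5 and 1.83 in control, 2.91 and 2.30 after light, and 2.29 and 1.45 with minocycline. Runx1 gave 1 and 1.5 in control, 0.75 and 0.611 after light, and 1.21 and 0.455 with minocycline. Irf5 gave 1.17 and 2 in control and 1.48 and 1.14 after light, which overlapped. Irf8 was at 2.83 in both controls, 2.41 and 2.16 after light, and 1.64 and 1.91 with minocycline. The ratio of Cebpa to Fli1 counts was 0.5 and 0.917 in control, 3.56 and 3.66 after light, and 1.03 and 0.471 with minocycline. These ratios rest on as few as 6 counts of Spi1 in control and are given without a test. For Irf8, Ikzf1 and Runx1 the direction depends on the denominator, as the microglia markers show.

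**Figure D4:**
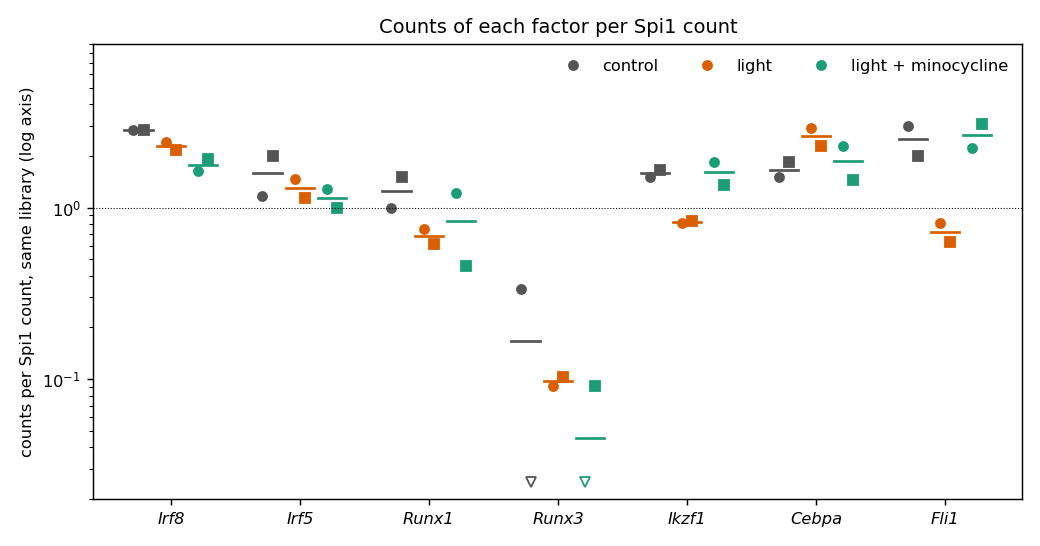
Counts of each other member per count of Spi1 in the same library (log axis). Circles are replicate 1 or minocycline A, squares replicate 2 or minocycline B, bars are group means and open triangles mark 0 counts. Fli1 and Ikzf1 lie below 1 after light and above 1 in the other libraries.

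Most microglial markers rose after light. Of 12 markers fixed as a list, 7 were higher after light at an adjusted p under 0.05 and 5 passed the fold cutoff too, and their sum was 110 CPM in each control, 320 and 826 CPM after light, and 145 and 106 CPM with minocycline. Examples that passed both were Cx3cr1, the fractalkine receptor (log2 fold change 3.82, SE 0.60, edgeR adjusted p = 0.0282), and Aif1, which encodes IBA1 (2.72, SE 0.56, 0.0227). P2ry12, a receptor of resting microglia, was higher by a log2 fold change of 1.73 (SE 0.38, 0.0227). The 8 blood monocyte markers summed to 29.6 and 31.5 CPM in control, 46.5 and 70.6 CPM after light, and 32.9 and 33.3 CPM with minocycline, and 2 of them were tested after light. Fn1, the fibronectin gene, carried most of this sum, with a mean of 28.4 CPM in control and 54.1 CPM after light, and was higher (log2 fold change 0.93, SE 0.21, edgeR adjusted p = 0.0232), and 0 were called with the fold cutoff. F13a1 had 1 and 0 counts in control and 5 and 8 after light. Ccr2 had 0 counts in both controls, 10 and 12 after light, and 1 and 0 with minocycline, whereas Ly6c2 had 2 to 6 counts in every library. Per 1000 microglia marker counts, the summed counts of the 8 members were 47.8 and 49.2 in control, 82.5 and 93.3 after light, and 48.5 and 57.2 with minocycline. Tgfbr1, a receptor that other retinal cells express as well, gave 792 of the 1548 and 835 of the 1564 marker counts in control. Without Tgfbr1, a choice made after its share was seen, the members were at 97.9 and 106 in control, 108 and 107 after light, and 81.3 and 125 with minocycline, and the light-exposed to control ratio of the means went from 1.81 to 1.06. On the whole-list scale Ikzf1 was at 5.81 and 6.39 in control and 6.57 and 8.85 after light, a direction opposite to its ratio to Spi1, and without Tgfbr1 it was at 11.9 and 13.7 in control and 8.60 and 10.2 after light. Runx1 likewise turned, from 3.88 and 5.75 in control and 6.02 and 6.49 after light to 7.94 and 12.3 in control and 7.89 and 7.46 after light. Cebpa was higher after light on all 3 scales (per Spi1, per marker, per marker without Tgfbr1), at 11.9 and 15.1 in control and 30.6 and 28.1 after light without Tgfbr1, and Fli1 was lower on all 3, at 23.8 and 16.5 in control and 8.60 and 7.66 after light. The shares of resident and recruited cells in the member counts were not tested.

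Known targets of PU.1 were taken as a list of 16 genes, all tested. Their median log2 fold change after light was 3.82, against 3.36 for the members. Of the 16, 9 were called higher, against 2.89% of all tested genes, and 0 lower. Among them were Tlr4, the endotoxin receptor (log2 fold change 3.64, SE 0.54, edgeR adjusted p = 0.00818), Btk, a kinase of B-cell and myeloid signalling (4.59, SE 0.80, 0.0154), Ncf1, a subunit of the phagocyte oxidase (3.70, SE 0.55, 0.0154), and Cd14, a co-receptor of Tlr4 (2.40, SE 0.49, 0.0231). Csf1r, the receptor on which microglia depend for survival, had 113 and 150 counts in control and 793 and 2799 counts after light, with a log2 fold change of 3.27 that did not pass (SE 0.72, 0.103). With minocycline against light the median of the 16 was -3.76 and 0 were called by edgeR. Csf1r is also in the microglia list, and whether the targets followed Spi1 or the number of myeloid cells was not tested.

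Most relatives of the members did not pass the test. Of 59 other factors listed (relatives in the IRF, C/EBP, RUNX, Ikaros and ETS families and further myeloid regulators), 47 were tested after light. Of these, 7 were higher and 3 lower at an adjusted p under 0.05, 4 were called higher with the fold cutoff and 0 lower, and the median log2 fold change was 0.27.

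Among the other interferon regulatory factors, 2 of 7 were higher and 1 lower. Irf1, induced by interferon-γ, had 41 and 37 counts in control, 133 and 239 after light, and 82 and 78 with minocycline, a log2 fold change of 1.80 after light (SE 0.33, edgeR adjusted p = 0.0132). Irf7, the amplifier of type I interferon, was higher by 1.22 (SE 0.23, 0.0156). Irf3, a constitutively expressed factor activated downstream of nucleic-acid sensors, fell by 0.74 on the log2 scale (SE 0.14, 0.0152).

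The other C/EBP and RUNX genes did not pass the test in any comparison, and neither did Cbfb, the shared partner of the RUNX proteins. Cebpb had 135 and 49 counts in control and 51 and 186 counts after light, with the groups overlapping and a log2 fold change of -0.13 (SE 0.69, edgeR adjusted p = 0.923). Runx2, the factor of bone, had 24 and 25 counts in control and 31 and 57 after light (log2 fold change 0.39, SE 0.41, 0.563). In the Ikaros family, Ikzf2 (Helios) fell by 0.76 on the log2 scale (SE 0.19, 0.0303), opposite in direction to Ikzf1, and Ikzf3 (Aiolos) had 0 counts in every library.

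Close relatives of PU.1 remained near the limit of detection. Spib had 0 to 4 counts per library, and Spic had 0 counts in 5 libraries and 2 in minocycline B. Elf4, an ETS factor of leukocytes, had 2 and 12 counts in control and 31 and 120 after light, with a log2 fold change of 2.92 that did not pass (SE 0.82, edgeR adjusted p = 0.0638). Elk3 was higher by 1.78 (SE 0.47, 0.0387).

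The further myeloid regulators called higher after light were 4 of the 19 tested, Sall1, Tal1, Lyl1 and Hhex. Sall1, which maintains microglial identity, had 12 and 8 counts in control, 47 and 104 after light, and 22 and 12 with minocycline (log2 fold change 2.44, SE 0.47, edgeR adjusted p = 0.0154). Tal1 and Lyl1 are paralogous factors of blood development. Tal1 had 1 and 5 counts in control and 17 and 38 after light (2.70, SE 0.68, 0.0312), and Lyl1 had 3 and 1 counts in control and 23 and 85 after light. The ratio of the Lyl1 group sums was 20.0 (95% interval 7.59 to 74.7, counting error only), and that of Hhex, with 2 and 0 counts in control and 12 and 36 after light, was 17.8 (4.66 to 151). Mef2c, expressed by microglia and by neurons, was lower after light (log2 fold change -0.96, SE 0.18, 0.0137).

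**Figure D5:**
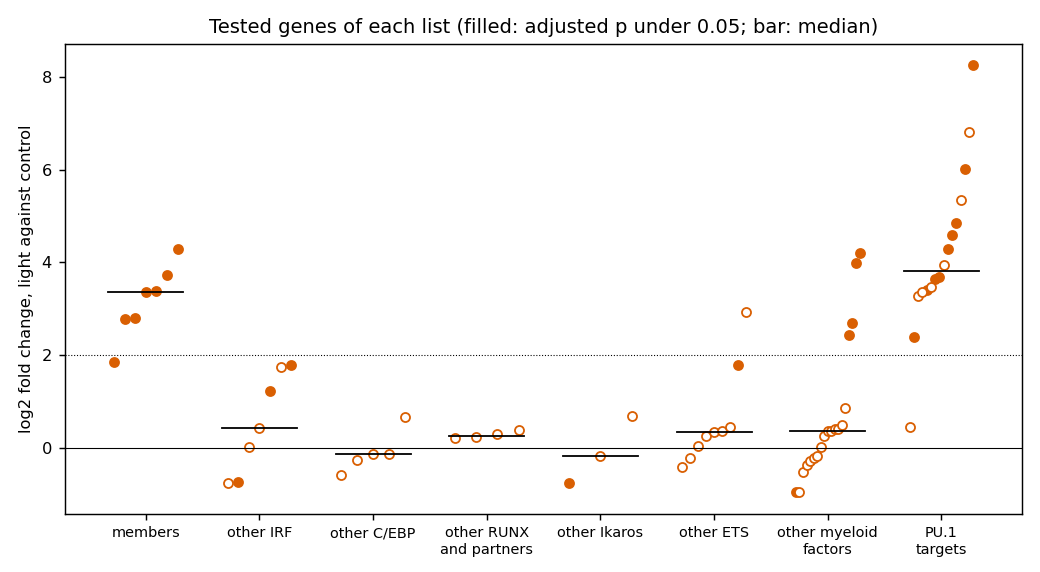
Log2 fold change of light-exposed against control for the tested genes of each list. Filled points had an edgeR adjusted p under 0.05, bars are list medians and the dotted line marks 2. The 7 tested members and most PU.1 targets lie above 2 or close to it, and the medians of the other factor lists lie between -0.17 and 0.42.

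Genes with a similar course over the 6 libraries were sought among 13971 genes by the root mean square difference of gene-centred log2 CPM from the mean profile of the members. That profile was -0.93 and -0.97 in control, 0.97 and 2.49 after light, and -0.68 and -0.88 with minocycline. The nearest gene was Grn, which encodes the lysosomal growth factor progranulin, at a distance of 0.0996. Its counts were 418 and 479 in control, 1885 and 7411 after light, and 781 and 641 with minocycline. Grn did not pass after light, with a log2 fold change of 2.87 (edgeR adjusted p = 0.130). The prior count of 2 in log2 CPM flattens genes with few counts, such as the members, more than it does Grn. Next came Gcnt1 (0.168), Cspg4 (0.193), H2-T23 (0.205), Slc11a1 (0.207), Litaf (0.209), Fabp5 (0.210), Slc7a7 (0.214) and Wipf1 (0.215). Of these, Slc11a1 encodes a metal transporter of the phagosome, H2-T23 a non-classical MHC class I molecule and Cspg4 a proteoglycan of pericytes and glial progenitors. Spi1 itself stood at 0.221 from the mean profile, and Cebpa (0.544) and Fli1 (0.650) were the farthest of the members. Likeness over 6 libraries in 3 groups is a description and includes the difference between the light-exposed replicates.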

How the data were processed

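RNA of mouse retina was measured in 6 libraries, 2 each of control, light-exposed and light-exposed minocycline-treated mice. The authors prepared stranded mRNA libraries, aligned reads with STAR to mm10 (GRCm38) and deposited counts per gene. The deposited table holds raw, whole-number counts of 23420 genes. The study's data statement calls them normalized. STAR's version, the gene annotation and the use of strand in counting are not given in the sources used here.

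Each pair of groups was fitted in edgeR 4.0.16 (R 4.3.3) over all genes that passed filterByExpr, with TMM normalization, robust quasi-likelihood F tests and Benjamini-Hochberg adjustment. Genes were called at an adjusted p under 0.05 where the log2 fold change was 2 or more in either direction. CPM used TMM-adjusted totals, and log2 CPM a prior count of 2. Normal 95% intervals were taken from the standard error, and counting intervals are exact and cover counting error only. With 2 libraries a group, the normal intervals are narrower than the F test implies. Scripts were tested on simulated data. The headers of the minocycline columns are identical, so those libraries are named A and B. Depth limits precision, as every member had under 20 counts in each control library.

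The members, the lists and the comparisons were chosen with earlier results of these data known. Genes named are the 8 members, called genes and up to a few examples of the fixed lists, the 10 genes nearest in profile and the promoter motifs. Alternatives were DESeq2 1.42.0 without shrinkage, DESeq2 size factors, total library size, no filter, a minimum of 10 counts in each library, one fit of all 6 libraries, no robust estimation, the replicate block, no fold cutoff and each library left out. Levels were recomputed with total library size. Leaving Tgfbr1 out of the microglia markers was added after seeing the data. Of the genes covered by the rule, 2 are not reported here.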

Additional observations from a re-analysis of the deposited data

How the results depend on the processing

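With light, the number of members called was 6, and 6 or 7 under 8 of the 9 alternatives that kept all libraries. It was 1 with at least 10 counts in every library, a filter that left 2 members to test. Leaving out 1 library gave 0 to 8. With minocycline against light, the number called was 0, and 6 with DESeq2 without shrinkage, 5 with no filter and 5 with all 6 libraries in one fit, while 299, 209 and 218 genes in all were called lower in place of 5. Leaving out 1 library gave 0 to 6. The cause was not tested. Minocycline against control gave 0 throughout. A library left alone in its group was assumed to vary like the other group.

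Single members kept their direction in light against control and in minocycline against light. Of their values after light, 63 kept their side of the threshold, 14 no longer passed and 2 newly passed, and with minocycline against light 54 kept it and 22 newly passed. Fli1 lost an adjusted p under 0.05 with DESeq2 size factors (0.0546), all 6 libraries in one fit (0.0642) and no robust estimation (0.0578). Against control, 7 values near 0 changed sign. Irf5 was at -0.26 without control 1 and -0.17 without minocycline A, and ran to 0.51 over the libraries left out. Runx1 was at -0.058 with DESeq2, -0.026 with DESeq2 size factors, -0.028 with no filter, -0.044 with all 6 libraries and -0.27 without control 1, and ran to 0.48 over the libraries left out.

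With total library size in place of TMM, the all-gene median lay at 0.24 on the log2 scale in light against control and to -0.17 in minocycline against light. Members per 1000 microglia marker counts were 1.81 times as many after light as in control, and 1.06 times without Tgfbr1. The replicate block left the number of members called after light at 6. Deviations of control 1 and light-exposed replicate 1 from their group means had a correlation of -0.011 across 14713 genes, so the numbers were not treated as pairs. No paired analysis was possible for minocycline because its columns carry the same replicate number, which does not tell them apart. With 2 libraries a group, no library could be tested as an outlier. Counts of 0 to 34 per control and minocycline library limit the precision of every member.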
